A study of Mus musculus with 6 samples.

Results

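The 9 genes described here encode myosin light chains and the kinases that act on them, read in gastrocnemius (Gas) muscle of wild-type (WT) mice and of mice without miR-92b (M92KO). They were taken from the count table by their symbols, Myl1, Mylpf, Myl3, Myl2, Myl4, Myl6, Myl6b, Mylk2 and Mylk4, out of 34714 symbols. All 9 were in the table, and all 9 were among the 15788 genes that passed the filter on low counts. RNA-seq had been done on Gas muscle of 3 WT and 3 M92KO mice, 1 library per mouse, in a study of what the loss of miR-92b does to glucose metabolism and exercise capacity. All 6 mice were 8 weeks old, male by the study's methods, untreated and kept on a standard rodent diet. M92KO mice carry the Mir-92bem22Cd549 allele on C57BL/6JGpt, a deletion in the whole body from 1 commercial line, so that an effect in muscle fibres and an effect from other tissues cannot be told apart. The WT controls were C57BL/6 mice matched for age, and nothing in the methods names them as littermates.

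Each myosin motor consists of heavy chains and of light chains that wrap around the lever arm behind the head. An essential light chain stiffens that lever, and a regulatory light chain can be phosphorylated by a calcium-calmodulin dependent kinase, which in skeletal muscle raises force at a given calcium level and underlies the potentiation of a twitch after a tetanus. Fast fibres use products of Myl1 and Mylpf, slow fibres and the ventricle use Myl3 and Myl2, and the embryo and the atrium use Myl4. Myl6 serves smooth muscle and non-muscle myosin, and Myl6b encodes a related essential light chain. Mylk2 encodes the kinase of skeletal muscle, and Mylk4 a member of the same family found in striated muscle.

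The deleted locus gives 2 mature miRNAs, shown here because their seeds (bases 2 to 8, in capitals) are what a direct target would have to match. Both were copied from RefSeq (GRCm38.p6, minus strand), miR-92b-3p at chr3:89227126-89227147 and miR-92b-5p at chr3:89227165-89227188.
miR-92b-3p: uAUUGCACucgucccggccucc
miR-92b-5p: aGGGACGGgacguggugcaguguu
The corresponding 8-base matches in a target are GTGCAATA for miR-92b-3p and CCGTCCCA for miR-92b-5p. No match of 6 bases or more to either seed was found in the 25 annotated protein-coding 3′-UTRs of the 9 genes (GENCODE M21 on GRCm38, 45 to 4407 bases long). For comparison, a match of 7 or 8 bases occurred in 13.3% of 20935 genes for miR-92b-3p and in 4.54% for miR-92b-5p. The longest 3′-UTR of each of the 9 genes had a median of 344 bases, against 967 bases over all genes, with Mylk4 (4407 bases) and Myl6 (1166 bases) above the latter. The search covered seed letters in annotated 3′-UTRs only.

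Promoters are shown for Myl1 and Mylpf, whose levels followed each other from mouse to mouse, and for Myl3, which did not follow them. They run from 250 bases before to 50 bases after the RefSeq start (GRCm38.p6), for Myl1 at chr1:66945007-66945306 on the minus strand, for Mylpf at chr7:127211358-127211657 on the plus strand and for Myl3 at chr9:110763428-110763727 on the plus strand. Capitals mark motifs searched on both strands, namely the E-box CANNTG, the M-CAT element GGAATG, the TATA box TATAAA, the CArG box and the MEF2 site.
Myl1: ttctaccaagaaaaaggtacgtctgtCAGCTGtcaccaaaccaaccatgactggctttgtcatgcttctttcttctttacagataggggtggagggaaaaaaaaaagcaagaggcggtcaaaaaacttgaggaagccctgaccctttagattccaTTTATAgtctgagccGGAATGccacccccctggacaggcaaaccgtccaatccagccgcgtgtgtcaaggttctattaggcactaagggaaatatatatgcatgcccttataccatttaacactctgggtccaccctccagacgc
Mylpf: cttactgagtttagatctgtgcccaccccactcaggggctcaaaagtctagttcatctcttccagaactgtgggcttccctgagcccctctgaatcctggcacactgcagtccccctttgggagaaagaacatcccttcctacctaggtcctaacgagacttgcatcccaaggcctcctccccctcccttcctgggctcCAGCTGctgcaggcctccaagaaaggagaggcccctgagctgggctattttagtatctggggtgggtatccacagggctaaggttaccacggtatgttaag
Myl3: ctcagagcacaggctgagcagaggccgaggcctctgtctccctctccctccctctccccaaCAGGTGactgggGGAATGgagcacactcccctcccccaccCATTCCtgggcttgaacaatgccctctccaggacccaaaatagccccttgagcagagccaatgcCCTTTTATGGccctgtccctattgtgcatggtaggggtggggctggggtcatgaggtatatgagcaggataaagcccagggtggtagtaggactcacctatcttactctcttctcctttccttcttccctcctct
Counted from the start, Myl1 had an E-box at -224, a TATA box on the opposite strand at -95 and an M-CAT element at -80, and Mylpf had an E-box at -51. Myl3 had an E-box at -189, M-CAT elements at -177 and, on the opposite strand, at -149, and a CArG box at -85. Among 32851 promoters of the same length, 72.3% held an E-box, 14.7% an M-CAT element, 13.6% a TATA box, 1.63% a CArG box and 0.557% a MEF2 site, so the E-boxes of the 3 genes are the common case and the CArG box of Myl3 is not. Of the 9 genes, 8 matched the RefSeq promoter table, with 10 promoters, and Mylk2 is missing from it. The other CArG box in this set stood in 1 of the promoters of Myl6, at -50. None of the 10 promoters held a MEF2 site of the form searched, and looser forms of that site were not searched.

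The 6 libraries held 33160508 to 48209846 counts, and the 9 genes took 1.90 to 2.18% of them. Values are CPM, counts scaled to a common library size, by TMM normalization, and are given as mean ± SD over 3 mice, and the test is edgeR's quasi-likelihood test with Benjamini-Hochberg adjustment over all genes tested. A floor of 3 counts lay between 0.0629 and 0.0916 CPM. Fast-fibre markers summed to 114196 to 131423 CPM in every library, while Nppa, a hormone of the atrium, was at 0.108 to 0.285 CPM, as the label of skeletal muscle has it. Among the pairs of libraries of 1 genotype, chi-square per degree of freedom over all genes was 53.6 and 53.5 for the 2 pairs that include M92KO 1 and 10.3 to 26.9 for the others, so M92KO 1 stood apart, and fold changes are also given without it. The libraries do not measure mature miRNAs, so the deletion itself was not checked here.

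Neither of the light chains that make up fast myosin, nor either kinase, passed the test between the genotypes, although Mylk4 was lower at an unadjusted p-value of 0.00343 (adjusted p = 0.335, limma) with the steps of the study's supplementary methods. At the threshold of the study, an unadjusted p-value of 0.05, 1 of the 9 genes passed in edgeR and was higher in M92KO (Myl6). With the steps of the supplementary methods Myl6 did not pass (unadjusted p = 0.0742, limma). In edgeR, 12.4% of all genes tested passed that threshold in either direction and 5.47% passed it upwards. None passed an adjusted p-value of 0.05 in edgeR, as for all genes (0.0% of 15788), whereas DESeq2's Wald test passed 312 genes, none of them a light chain or kinase gene of this set. The values of WT and M92KO mice did not overlap for 1 of the 9 genes, against 18.4% of all genes. The median log2 fold change (M92KO over WT) of the 9 genes was 0.0042, and that of all genes tested was -8.07e-05. M92KO-to-WT ratios of mean CPM ran from 0.654 for Myl3 to 1.12 for Myl6.

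**Figure D1:**
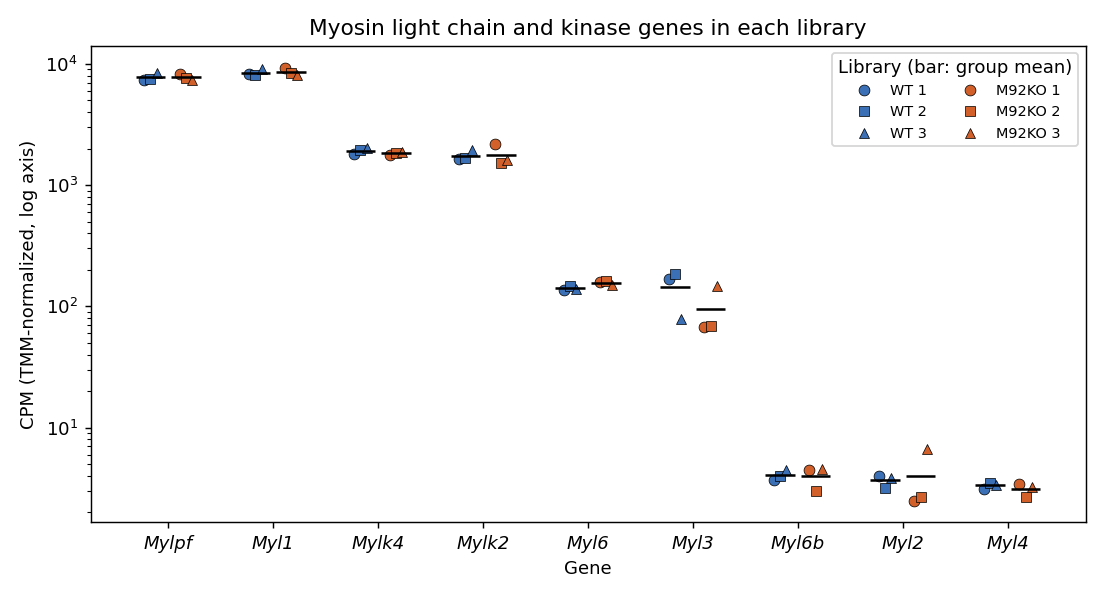
CPM of the 9 genes in each library on a log axis, with 1 point per mouse (blue WT, orange M92KO) and a black bar for each group's mean. Mylpf and Myl1 sit between 7392 and 9303 CPM in all 6 libraries. Myl3 spreads from 79.1 to 186 CPM in WT and from 67.5 to 148 CPM in M92KO mice. Myl6 is the gene whose groups do not overlap.

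Myl1 encodes the fast essential light chain, as a long and a short protein made from separate starts of the gene that counts per symbol do not separate. It measured 8178, 8099 and 9093 CPM in the WT mice and 9303, 8453 and 8148 CPM in the M92KO mice. The highest value was that of M92KO 1, followed by WT 3, and the groups overlapped. Group means were 8457 ± 552 and 8635 ± 599 CPM, a log2 fold change of 0.03 ± 0.10 (SE; edgeR adjusted p = 0.937). The 95% interval of the difference ran from 0.872-fold to 1.20-fold, and without M92KO 1 the log2 fold change was -0.03.

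Mylpf, the fast regulatory light chain and the substrate of the skeletal muscle kinase, measured 7394, 7481 and 8318 CPM in WT and 8217, 7651 and 7392 CPM in M92KO mice. WT 3 and M92KO 1 were again the highest, and the lowest WT and the lowest M92KO value were nearly the same. Means were 7731 ± 511 and 7753 ± 422 CPM, with a log2 fold change of 0.0042 ± 0.096 (SE; edgeR adjusted p = 0.992; -0.04 without M92KO 1), the smallest of the 9 genes in absolute size, and an interval from 0.861-fold to 1.17-fold. Only 1.99% of the genes tested had a smaller log2 fold change in absolute size. At 250529 to 433934 counts per library, counting error was 0.152 to 0.2% for these 2 fast light chain genes, far below the spread between mice of 5.44 to 6.93%.

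The pair kept nearly the same proportion in every mouse. Per kilobase of exon, the ratio of Mylpf to Myl1 counts was 1.77, 1.80 and 1.79 in WT and 1.72, 1.77 and 1.77 in M92KO mice. M92KO 1 had the lowest ratio and the groups overlapped, with means of 1.79 ± 0.0192 and 1.75 ± 0.0259 (log2 difference -0.03, or -0.01 without M92KO 1, exact two-sided permutation p = 0.3, where 3 against 3 allows no less than 0.1). This ratio was chosen after the values had been seen. Across the 6 libraries, log2 CPM of Myl1 followed that of Mylpf (Pearson's r = 0.973) and of Myh4, the heavy chain of the fastest fibres (r = 0.963), and these r values are descriptions over libraries that share their scaling. Myh4 itself measured 22990, 24629 and 28844 CPM in WT and 31515, 25007 and 22945 CPM in M92KO mice. Its 2 highest libraries, M92KO 1 and WT 3, were those with the highest Myl1.

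**Figure D2:**
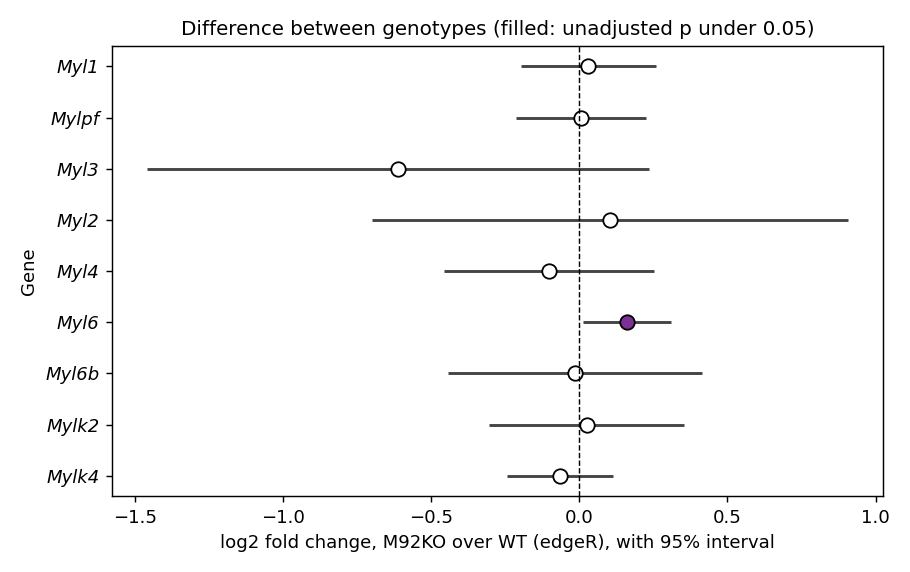
Log2 fold change of each gene, M92KO over WT, from edgeR, with its 95% interval as a horizontal line and the dashed line at no difference. The interval of Myl6 (0.01 to 0.31) is the only one that leaves out 0, and those of Myl3 (-1.46 to 0.24) and Myl2 (-0.70 to 0.91) are the widest.

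Myl3, the essential light chain of slow fibres and of the ventricle, had the largest fold difference between the genotypes and, among the members with a mean above 100 CPM over all mice, the largest spread relative to its mean. It measured 169, 186 and 79.1 CPM in WT and 67.5, 68.7 and 148 CPM in M92KO mice. WT 1, WT 2 and M92KO 3 were high and WT 3, M92KO 1 and M92KO 2 were low, so each genotype had mice at both levels. Means were 145 ± 57.6 and 94.6 ± 46.0 CPM, a log2 fold change of -0.61 ± 0.37 (SE; edgeR adjusted p = 0.561), with an interval from 0.363-fold to 1.18-fold. The fold change was larger in absolute size than that of 94.6% of the genes tested. With 2248 to 7798 counts per library, counting error was 1.13 to 2.11%, against a spread of 39.8% among WT and 48.6% among M92KO mice. Without WT 3 the log2 fold change was -0.91 (edgeR unadjusted p = 0.0224, adjusted p = 0.575), without M92KO 3 it was -1.09 (unadjusted p = 0.0117, adjusted p = 0.355), and without M92KO 1 it was -0.42 (unadjusted p = 0.325), so single mice decided whether Myl3 was past the threshold of 0.05.

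Myl2, the regulatory partner of Myl3 in slow fibres, was low. It measured 4.03, 3.18 and 3.88 CPM in WT and 2.51, 2.69 and 6.69 CPM in M92KO mice. M92KO 3 held the highest value of all 6 and the other 2 M92KO mice the lowest, so the M92KO group lay on both sides of the WT group. Means were 3.70 ± 0.449 and 3.96 ± 2.37 CPM, a log2 fold change of 0.10 ± 0.35 (SE; edgeR adjusted p = 0.939). Without M92KO 3 the sign turned, to -0.51 (edgeR unadjusted p = 0.0237, adjusted p = 0.399), and without M92KO 1 it was 0.35. With 87 to 243 counts per library, counting error was 6.41 to 10.7%.

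Set against their fast partners, both slow light chains were minor. Myl3 made up 2.05, 2.28 and 0.875% of the essential light chain transcripts (Myl3 and Myl1, counts per kilobase) in WT and 0.730, 0.817 and 1.81% in M92KO mice. The groups overlapped, with means of 1.74% ± 0.755 and 1.12% ± 0.598 and a log2 difference of Myl3 over Myl1 of -0.65 (exact two-sided permutation p = 0.2; -0.40 without M92KO 1). Myl2 made up 0.0296, 0.0232 and 0.0254% of the regulatory transcripts (Myl2 and Mylpf) in WT and 0.0166, 0.0191 and 0.0493% in M92KO mice. M92KO 3 alone lay above the WT range, and the log2 difference of Myl2 over Mylpf was -0.05 (exact two-sided permutation p = 1; 0.24 without M92KO 1).

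**Figure D3:**
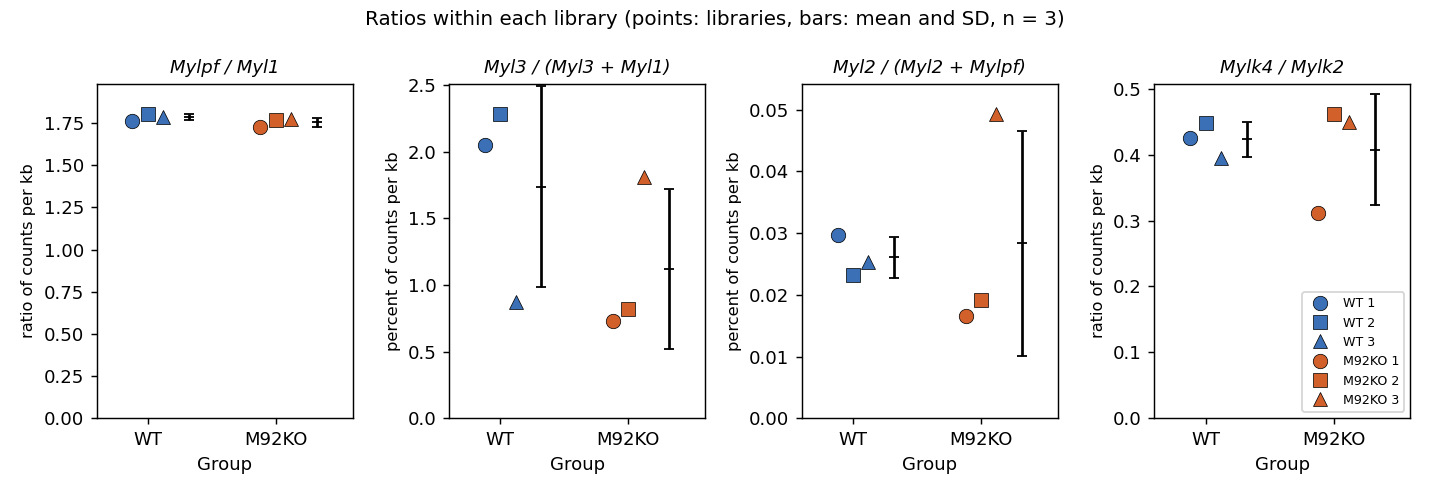
Ratios or percentages of counts per kilobase within each library, with points for mice and bars for the mean and SD of 3. The ratio of Mylpf to Myl1 stays between 1.72 and 1.80, while the Myl3 share spans 0.730 to 2.28% and the Myl2 share 0.0166 to 0.0493%.

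The level of Myl3 was set beside the other slow-fibre genes from mouse to mouse. Myh7, the slow heavy chain, measured 2.47, 3.26 and 12.7 CPM in WT and 2.76, 9.50 and 3.72 CPM in M92KO mice. It was highest in WT 3, as were the slow troponin genes Tnnt1 (6.18 CPM), Tnni1 (2.62 CPM) and Tnnc1 (3.29 CPM), whereas Myl3 was among the 3 low values there. These troponin genes lay at only 1.04 to 6.18 CPM over all libraries. The more abundant slow-fibre markers were divided in WT 3. Atp2a2 was highest there (70.6 CPM) and Tpm3 (66.6 CPM) was below only WT 2. Myoz2 was lowest there (47.4 CPM), and Casq2 (60.8 CPM) was above only M92KO 1 (58.7 CPM). Pearson's r of log2 CPM with Myl3 over the 6 libraries was -0.58 for Myh7, -0.49 for Tnnc1, -0.29 for Tnni1, 0.05 for Myoz2, 0.09 for Tnnt1, 0.25 for Tpm3, 0.27 for Atp2a2 and 0.57 for Casq2, so these 8 markers lay on both sides of 0. It was 0.54 between Myl3 and Myl2, and -0.83 between Myl3 and Myl1. These r values rest on 6 libraries with Myl3 at a high and a low level, so they are descriptions. In whole muscle, fewer slow fibres and less RNA of a gene per fibre cannot be told apart. Per kilobase of exon, Myl3 was at 70.8 CPM in WT and 46.3 CPM in M92KO mice. Its slow partner Myl2 was at 1.90 and 2.03 CPM. Which fibres or cells held the Myl3 RNA was not tested.

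**Figure D4:**
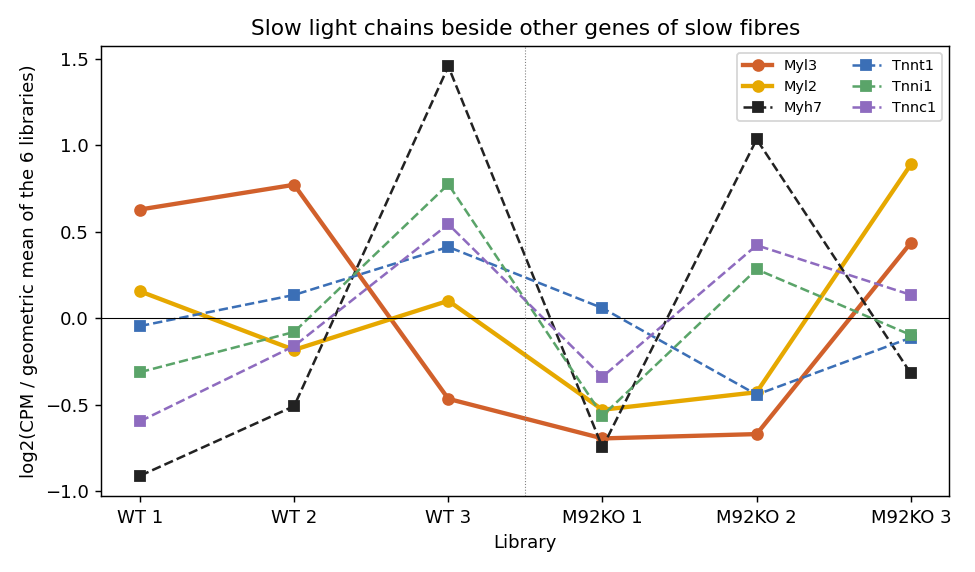
Log2 of CPM over the geometric mean of the 6 libraries, by library, for Myl3 and Myl2 (thick lines) and 4 other slow-fibre genes (dashed lines). Myh7, Tnnt1, Tnni1 and Tnnc1 peak in WT 3, where Myl3 lies at -0.47, and Myl2 peaks in M92KO 3 at 0.89. Slow-fibre markers that are low in WT 3 (Myoz2 and Casq2) are not drawn.

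Myl4, the essential light chain of embryonic muscle and the atrium, was near 3 CPM in both groups. The WT mice had 3.12, 3.52 and 3.39 CPM and the M92KO mice 3.43, 2.69 and 3.22 CPM. M92KO 2 was the lowest and the groups overlapped (log2 fold change -0.10 ± 0.16, SE; edgeR adjusted p = 0.840; -0.18 without M92KO 1). Over Myl1, its log2 ratio differed by -0.14 (exact two-sided permutation p = 0.4; -0.16 without M92KO 1). Of its atrial companions Myl7, the regulatory light chain of the atrium, had 2 counts in M92KO 1 and none in the other 5 libraries.

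Myl6, the essential light chain of smooth muscle and non-muscle myosin, was the member with the lowest p-value. It measured 137, 146 and 139 CPM in WT and 158, 163 and 151 CPM in M92KO mice. The 3 M92KO mice all lay above the 3 WT mice, with WT 2 and M92KO 3 the closest pair. Means were 141 ± 4.74 and 157 ± 6.32 CPM, a ratio of 1.12 and a log2 fold change of 0.16 ± 0.065 (SE), with unadjusted p = 0.0376 and adjusted p = 0.377 in edgeR. The exact two-sided permutation test gave p = 0.1, the smallest value that 3 against 3 allows. The unadjusted p-value stayed under 0.05 in 5 of 12 alternatives, and was 0.136 without WT 1, 0.0510 without WT 2, 0.110 without WT 3, 0.109 without M92KO 2 and 0.0267 without M92KO 1. With the steps of the supplementary methods the log2 fold change was 0.12 (limma unadjusted p = 0.0742).

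Markers of other cell types are given beside Myl6, and their part in its difference was not tested. Smooth muscle and pericyte markers summed to 1107 to 1165 CPM in WT and 977 to 1097 CPM in M92KO mice, and of 6 none was higher and 1 (Rgs5, a pericyte gene) was lower at an unadjusted p-value under 0.05. Fibroblast markers summed to 1709 to 2270 CPM in WT and 1151 to 1597 CPM in M92KO mice, where 3 of 6 (Col1a1, Col1a2 and Dcn) were lower at that threshold and none was higher. Both sums were lower in every M92KO mouse, the direction opposite to that of Myl6. Most of the first sum was Rgs5, and the other 5 smooth muscle and pericyte genes summed to 296 to 302 CPM in WT and 280 to 343 CPM in M92KO mice, which overlapped. Of the 6 genes, 4 had a log2 fold change above 0, and Tagln, a smooth muscle protein, was at 42.2, 42.3 and 42.0 CPM in WT and 42.8, 46.9 and 45.3 CPM in M92KO mice (log2 fold change 0.09 ± 0.064, SE; edgeR adjusted p = 0.620). The M92KO values of Tagln lay above the WT values, as for Myl6, and the groups did not overlap for 18.4% of all genes tested. Among leukocyte and endothelial markers 1 of 4 (Ptprc) and 1 of 5 (Tie1) were lower, and none was higher. For comparison with these lists, 1092 of all 15788 genes tested were lower at an unadjusted p-value under 0.05. None of the 4 fat-cell, 5 red-cell, 4 regenerating-fibre and 3 atrial markers tested passed in either direction.

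Myl6b, next to Myl6 on the minus strand of chromosome 10 and read without shared exons, encodes a related essential light chain and was far lower. It measured 3.68, 4.01 and 4.48 CPM in WT and 4.49, 2.99 and 4.54 CPM in M92KO mice. M92KO 2 was the lowest and M92KO 3 the highest, and the log2 fold change was -0.02 ± 0.19 (SE; edgeR adjusted p = 0.983; -0.10 without M92KO 1).

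Mylk2, the calcium-calmodulin dependent kinase of Mylpf, measured 1626, 1660 and 1947 CPM in WT and 2189, 1530 and 1606 CPM in M92KO mice. M92KO 1 was the highest and the other 2 M92KO mice the lowest of all 6. Means were 1744 ± 176 and 1775 ± 361 CPM, a log2 fold change of 0.02 ± 0.14 (SE; edgeR adjusted p = 0.964). Without M92KO 1 the log2 fold change was -0.15 (edgeR unadjusted p = 0.110, adjusted p = 0.386). Over the 6 libraries its log2 CPM had an r of 0.894 with Myl1 and 0.861 with its substrate Mylpf.

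Mylk4, the other kinase of the family in this set, was at 1804, 1938 and 2006 CPM in WT and at 1773, 1840 and 1882 CPM in M92KO mice. M92KO 1 was the lowest and WT 3 the highest, and the groups overlapped. Means were 1916 ± 103 and 1832 ± 55.1 CPM, a log2 fold change of -0.06 ± 0.079 (SE; edgeR adjusted p = 0.793) that was -0.04 without M92KO 1. With the quantile normalization, log2 and limma steps of the supplementary methods it was -0.27 (limma unadjusted p = 0.00343, adjusted p = 0.335). Unlike Mylk2, it did not follow Myl1 over the libraries (r = -0.04). Per kilobase, the ratio of Mylk4 to Mylk2 was 0.426, 0.448 and 0.395 in WT and 0.311, 0.462 and 0.450 in M92KO mice. M92KO 1 had the lowest ratio and the other 2 M92KO mice the highest, with a log2 difference of -0.07 (exact two-sided permutation p = 1) that was 0.11 without M92KO 1 (exact p = 0.2).

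Levels of different genes can be set side by side only per length, here as CPM per kilobase of annotated exon. Mylpf was at 7280 ± 481 in WT and 7301 ± 397 in M92KO mice, Myl1 at 4077 ± 266 and 4163 ± 289, Mylk2 at 591 ± 59.8 and 601 ± 122 and Mylk4 at 249 ± 13.4 and 238 ± 7.17. That order held in each of the 6 libraries. Myl3 (70.8 ± 28.2 and 46.3 ± 22.5) and Myl6 (44.2 ± 1.49 and 49.4 ± 1.98) came next and changed places between libraries, although with the longest transcript as the length Myl3 stood above Myl6 in all 6. Myl6b (2.20 ± 0.219 and 2.17 ± 0.477) and Myl2 (1.90 ± 0.230 and 2.03 ± 1.21) did not differ beyond their spread, and Myl4 was the lowest in every library (0.721 ± 0.0446 and 0.671 ± 0.0823). By mean CPM, Myl1 ranked 9 and Mylpf 11 of the 15788 genes, Mylk4 46 and Mylk2 52, whereas Myl6b, Myl2 and Myl4 ranked 10874, 10974 and 11273.

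The genes of Myl2, Myl3 and Myl4 share 60, 95 and 3 exonic bases with Ccdc63, Pth1r and Gm22000 on the opposite strand. Whether the counting used strand was not given in the sources used here, so reads from these bases may belong to either gene. In GRCm38 Myl3 lies at chr9:110741861-110769798 on the plus strand, Mylpf at chr7:127208890-127214298 on the plus strand, Myl1 at chr1:66924295-66945404 on the minus strand and Myl6 at chr10:128490860-128494145 on the minus strand. Mylk2 lies at chr2:152911352-152923068 on the plus strand and Mylk4 at chr13:32700834-32783954 on the minus strand.

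Elsewhere in the motor, 1 of 8 heavy chain genes passed the unadjusted threshold, against 12.4% of all genes tested. Myh2, the heavy chain of fast oxidative fibres, measured 2124, 2239 and 1612 CPM in WT and 2018, 3575 and 4099 CPM in M92KO mice. M92KO 2 and 3 lay above all WT mice and M92KO 1 among them (log2 fold change 0.70 ± 0.24, SE; edgeR adjusted p = 0.314). By qPCR in Gas, the study reported that its fibre-type genes, which included Myh2 and Myh4, did not differ between the genotypes. Myh4 was the most abundant heavy chain (log2 fold change 0.06 ± 0.15, SE; edgeR adjusted p = 0.922). None of 3 myosin-binding protein genes tested passed, the most abundant being Mybpc1 (0.05 ± 0.17, log2 fold change ± SE). None of 4 other light chain genes tested did either, and the most abundant, Myl12a, shares exons and sequence with Myl12b, so its value is uncertain (0.15 ± 0.11, log2 fold change ± SE).

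Of the other kinases that act on regulatory light chains, together with calmodulin, 2 of 7 tested were lower at an unadjusted p-value under 0.05 and none was higher. Over all 15788 genes tested, 1092 were lower at that threshold. Mylk, the kinase of smooth muscle and non-muscle cells, measured 53.8, 46.8 and 50.8 CPM in WT and 40.3, 43.8 and 40.3 CPM in M92KO mice. All M92KO values lay below all WT values (log2 fold change -0.28 ± 0.076, SE, with edgeR adjusted p = 0.220). The groups did not overlap for 18.4% of all genes tested. The sum of smooth muscle and pericyte markers given above was also lower, but most of it was Rgs5. The other 5 of these markers summed to 296 to 302 CPM in WT and 280 to 343 CPM in M92KO mice, which overlapped. Their part in the difference of Mylk was not tested. Rock1, the other kinase gene that was lower at that threshold, had a log2 fold change of -0.19 ± 0.080 (SE, with edgeR adjusted p = 0.384). Among 7 genes of myosin phosphatase, the enzyme that removes the phosphate again, 1 was lower, the targeting subunit Ppp1r12c (log2 fold change -0.20 ± 0.083, SE; edgeR adjusted p = 0.390), and Ppp1cb, the catalytic subunit and the most abundant, stood at 0.12 ± 0.11. Of 8 slow-fibre markers 1 was higher (Myoz2, a Z-disc protein, 0.78 ± 0.25) and 1 lower (Tpm3, slow tropomyosin, -0.31 ± 0.091), as log2 fold change ± SE. None of 10 fast-fibre markers passed.

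Genes with the most similar profile over the 6 libraries, by Pearson's r of log2 CPM among genes with a mean of at least 10 CPM, were listed for the 4 members with the lowest p-values. For Myl6 they were Acot11 (r = 0.997), Selenof (0.990) and Ube2a (0.989), and for Myl3 C630043F03Rik (0.976), Kansl1 (0.975) and Mtfp1 (0.969). The genes closest to Mylk4 were Cdc42 (0.992), Mgat4a (0.987) and Rprd1b (0.984), and those closest to Myl4 were Cnot10 (0.993), Nat10 (0.989) and Bphl (0.984). With 6 libraries high r values were common: 108 of 8744 genes reached an r of 0.9 with Myl6, 72 with Mylk4 and 30 with Myl3.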

How the data were processed

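RNA was extracted from Gas muscle of 3 WT and 3 M92KO mice and libraries were built with a SMARTer kit. The authors deposited raw counts, whole numbers of reads for 34714 symbols and 6 libraries, not normalized. The submitters' processing notes name GRCm38 (mm10), and the aligner, counter and strandedness are not given in the sources used here. M92KO was compared with WT by edgeR 4.0.16 in R 4.3.3 (filterByExpr with a minimum count of 10 and a minimum total of 15, TMM, glmQLFit and glmQLFTest, Benjamini-Hochberg over 15788 genes), which was tested on simulated data. Intervals are 95%, and counting error and the floor of 3 counts cover counting only. Levels per kilobase and ratios within a library used the union of exons in GENCODE M21. DESeq2 1.42.0 and limma 3.58.1 served as alternatives. All 9 genes are named, and others where p was under 0.05 or as the most abundant of a list, and some genes under this rule are left out of the text. The exceptions, chosen after their values were seen, are Myh7, Tnnt1, Tnni1, Tnnc1, Atp2a2, Tagln, Myl7 and Nppa. Members and lists were chosen with earlier results of these data known. The p-values of edgeR, DESeq2 and limma set the difference between genotypes against the spread between these mice, estimated in part across genes. The exact p-values compare the ways of dividing the libraries into groups.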

Additional observations from a re-analysis of the deposited data

How the results depend on the processing

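There were 12 alternatives for each of the 9 genes. A fold change was counted as kept if it stayed on its side of the threshold. Its direction also had to stay, or its move to be less than the SE of the reported fit. Of 108 fold changes, 96 were kept. Without 1 library at a time, the log2 fold change of Myl2 ran from -0.51 (without M92KO 3, where the sign turned and the unadjusted p-value was 0.0237) to 0.35 and that of Myl3 from -1.09 to -0.39. Signs also turned, without passing the threshold, for Myl1 (-0.03 to 0.08), Mylpf (-0.04 to 0.06), Myl6b (-0.12 to 0.15) and Mylk2 (-0.15 to 0.12). Myl6 ran from 0.12 to 0.19 over all 12, with unadjusted p-values of 0.0267 to 0.136. The members with an unadjusted p-value under 0.05, 1 in the reported fit, were 0 without a filter on low counts, 0 with the replicate block and 0 to 3 without 1 library. The 3 were Myl2, Myl3 and Myl6 without M92KO 3, and without WT 3 the 1 was Myl3 in place of Myl6. The log2 fold change of Mylk4 was -0.27 (unadjusted p = 0.00343, adjusted p = 0.335, limma) with the steps of the supplementary methods (quantile normalization, log2, limma). The cause was not tested. The 5 ratios had exact p-values of 0.1 to 1 under all alternatives, in a design that cannot go under 0.1.

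Over all genes, 1222 to 2984 passed the unadjusted threshold without 1 library, against 1955. Of the 1955, 863 were higher and 1092 lower, and with the steps of the supplementary methods 1244 were higher and 1043 lower. With an adjusted p-value under 0.05, against 0, there were 312 in DESeq2's Wald test, 6 without a filter, 42 with the steps of the supplementary methods, 2 with the replicate block and 0 to 401 without 1 library (401 without M92KO 1). The labels give both genotypes the numbers 1 to 3. Deviations of same-numbered libraries had correlations of 0.0806, 0.0376 and 0.0151, and those of the other pairs ran from -0.0686 to 0.0365. With 3 mice per genotype, these values cannot decide whether the numbers pair the mice. Under the replicate block the log2 fold change of Myl6 was 0.16 (edgeR unadjusted p = 0.0730, adjusted p = 0.515). Counting error was largest for Myl2, Myl4 and Myl6b, at 87 to 243 counts per library. It was 6.41 to 10.7% for Myl2, against a spread of 12.2% among WT and 59.7% among M92KO mice. For Myl6b it was 6.84 to 10.1%, against 9.96 and 22.0%. For Myl4 it was 7.86 to 10.7%, against 6.18 and 12.3%. Depth did not limit the abundant genes.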
